A study of Mus musculus with 5375 samples.

Results

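Genes of the G2 phase and of mitosis were followed in endothelial cells (ECs) of mouse lungs and in tumour cells (TCs) seeded there, across 5 TC groups and 3 EC days. The list comprised 52 named genes, and all 52 were present in the raw tables, which held 35308 genes for ECs and 35299 for TCs. The members are kinases and cyclins that start mitosis, kinetochore and centromere proteins, spindle motors, factors that shape chromosomes, and a few chromatin and nuclear envelope proteins. In TCs most members were read in most cells, and the 4 main comparisons of gates, some of them also of different days, called 0 to 5 members, beside 0 to 8.57% of all genes tested. In ECs most members were read in few cells, and 24 cells of days 1.5 and 3.5 held most of the reads of genes such as Cdk1, Ccnb2, Bub1 and Top2a.

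Wild-type female BALB/c mice received GFP-expressing 4T1 cells, a mouse breast cancer line, through the tail vein, and the cells carried CellTrace, a dye that each division dilutes. ECs came from uninjected mice (day 0, 4 mice) and from injected mice on day 1.5 (3 mice) and day 3.5 (3 mice), sorted as CD31+ and negative for CD45, PDPN, LYVE and TER119. TCs were sorted on day 1.5 as intravascular or extravascular (4 mice, both gates from the same animals), according to whether an antibody given into the blood against H-2Kd had reached them, and on day 3.5 as latent (dye kept, 4 mice) or proliferative (dye diluted). Although 4 replicates are labelled for the proliferative gate, its cells all carry 1 mouse in the deposited annotation, the mouse of latent replicate 4, and the gate was used as 1 pool. ECs and TCs of an injected mouse share a replicate number, except that no ECs came from the mice of replicate 4. TCs from culture, taken before injection, formed 1 further pool and entered no test. The mice were between 8 and 12 weeks of age by the study's methods, which give no age per group. All TCs descend from 1 cell line, and each TC gate was sequenced on a lane of its own, so that gate and lane cannot be told apart. The study states that sorting enriched the TC subpopulations but was not of high purity. As bona fide latent it counted only cells of the latent gate with low summed scores of S and G2M genes. Here every kept cell of the latent gate was used.

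Mitosis begins when the kinase Cdk1, bound to a B-type cyclin, is switched on by the phosphatase Cdc25c. Kinetochores then attach chromosomes to the spindle, the checkpoint kinases Bub1 and Ttk hold back the anaphase-promoting complex (APC/C) until every chromosome is attached, and the APC/C with its activator Cdc20 and its ubiquitin-loading enzyme Ube2c then destroys cyclin B and ends mitosis. Many genes of this class are transcribed in G2, and CCAAT boxes and the CHR element (TTTGAA or TTCGAA) are known from the promoters of some of them, so that their transcripts serve as marks of dividing cells, and lung endothelium is known to divide rarely at rest.

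Sequences of 4 member promoters are shown, for 3 genes whose EC reads lay mostly in a few cells with many members (Cdk1, Top2a and Ccnb2) and for Ube2c, which differed between TC gates. They were read from RefSeq promoters on GRCm38, which run from 250 bases before to 50 bases after a start site, and only the stretch before the gene's own annotated transcripts was printed. Capitals mark matches to CCAAT and to the CHR letters on either strand, and each sequence runs 5′ to 3′ on the gene's strand. Ube2c lies at chr2:164769679-164769897 (+), Cdk1 at chr10:69352939-69353162 (−), Top2a at chr11:99024190-99024439 (−) and Ccnb2 at chr9:70421555-70421804 (−), and no other annotated gene lay in these windows.
Ube2c: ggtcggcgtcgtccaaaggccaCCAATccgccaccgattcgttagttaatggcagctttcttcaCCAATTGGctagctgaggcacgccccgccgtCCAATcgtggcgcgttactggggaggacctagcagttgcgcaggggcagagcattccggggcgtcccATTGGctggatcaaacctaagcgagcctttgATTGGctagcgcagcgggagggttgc
Cdk1: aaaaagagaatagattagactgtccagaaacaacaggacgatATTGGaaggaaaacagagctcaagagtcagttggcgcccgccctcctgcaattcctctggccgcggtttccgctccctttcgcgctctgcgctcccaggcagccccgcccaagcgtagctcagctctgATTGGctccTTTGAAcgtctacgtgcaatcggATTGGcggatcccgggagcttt
Top2a: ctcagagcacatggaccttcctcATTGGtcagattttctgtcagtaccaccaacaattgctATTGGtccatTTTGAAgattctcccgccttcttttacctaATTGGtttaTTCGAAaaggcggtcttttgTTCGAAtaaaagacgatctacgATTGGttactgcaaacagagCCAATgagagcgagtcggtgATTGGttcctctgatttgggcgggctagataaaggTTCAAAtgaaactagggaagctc
Ccnb2: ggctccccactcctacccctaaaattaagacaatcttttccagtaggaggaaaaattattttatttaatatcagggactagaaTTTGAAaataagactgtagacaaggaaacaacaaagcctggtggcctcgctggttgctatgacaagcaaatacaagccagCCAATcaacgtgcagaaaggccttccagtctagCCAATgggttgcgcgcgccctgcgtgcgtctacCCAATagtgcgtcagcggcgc

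CCAAT stood at 6 places in the Ube2c and Top2a stretches and at 3 places in those of Cdk1 and Ccnb2, and the printed Ube2c stretch held neither TTTGAA nor TTCGAA. The 31 bases of the Ube2c window next to the start site, which were not printed, held 1 match to the CHR letters, on the other strand, and this promoter is among the 22 counted below. Of the 52 members, 46 had an entry in the RefSeq table, with 51 promoters between them. CCAAT was found on either strand in 38 of the 51 promoters (74.5%), against 33.8% of all 32851 promoters of the same length. TTTGAA or TTCGAA stood in 22 (43.1%, against 17.1%), both kinds of motif in 19 (37.3%, against 6.02%), and CCAAT at 2 or more places in 28 (54.9%, against 10.1%). The motifs were searched separately, and CCAAT can share its end letter with an adjoining TTTGAA. A match describes these letters in this window and does not show a bound factor.

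Each cell was a library of its own, made by SMART-Seq2, which copies full-length polyadenylated RNA without molecular identifiers and without marking the strand. The estimated read counts of the cells that the authors kept were added up per animal within each group, and a level is given as CPM, the reads of a gene scaled to a sum of 1000000 (1 M) reads. The sums held 75.6 to 129.5 M reads in ECs and 31.9 to 49.9 M in the intravascular, extravascular and latent gates, with 163.48 M in the proliferative pool and 92.1 M in the cultured cells. Pecam1, which defines ECs, lay between 1349 and 1927 CPM in the EC sums, and Ptprc, the gene of CD45, between 0 and 0.0686 CPM, in cells from which the authors had removed those expressing Ptprc and other immune, stromal or mural markers. Epcam, an epithelial gene of 4T1 cells, lay between 188.1 and 419.7 CPM in the TC sums of mice and at 234.6 CPM in culture. Since the reads do not keep the strand, a member and a gene on the other strand can share reads: 16 members share exonic bases with another annotated gene, 10 of them with a protein-coding gene. CPM is not scaled by transcript length, so levels are compared between samples and not between genes. CPM also carries no scaling between libraries beyond the read total, whereas the log2 differences of edgeR carry TMM scaling, so that small differences can have another sign or size on the CPM scale.

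The share of cells with a read of a member separated the cell types more than any day or gate. Its median over the 52 members was 5.6% of ECs on day 0, 6.85% on day 1.5 and 8.01% on day 3.5. In TCs it was 55.3% in culture, 73.1% intravascular, 67% extravascular, 68.2% latent and 76.2% proliferative. Deeper cells show more genes, and ECs and TCs were amplified with different cycle numbers, so cells were also thinned to 50000 reads each. The medians were then 2.49%, 3.1% and 3.6% in ECs and 42.3%, 50.8%, 49.2%, 51.3% and 55.3% in TCs in the order above. All 52 members together summed to 1136 ± 171, 1268 ± 270 and 1364 ± 440 CPM on the 3 EC days (SD; n = 4, 3 and 3), and to 6536 ± 325 CPM in intravascular, 6593 ± 414 in extravascular and 7861 ± 791 in latent TCs (n = 4 each), with 8349 CPM in the proliferative pool and 5099 CPM in cultured TCs. The median EC had 4 to 7 members with a read in each animal, and the median TC had 32 to 41.

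**Figure D1:**
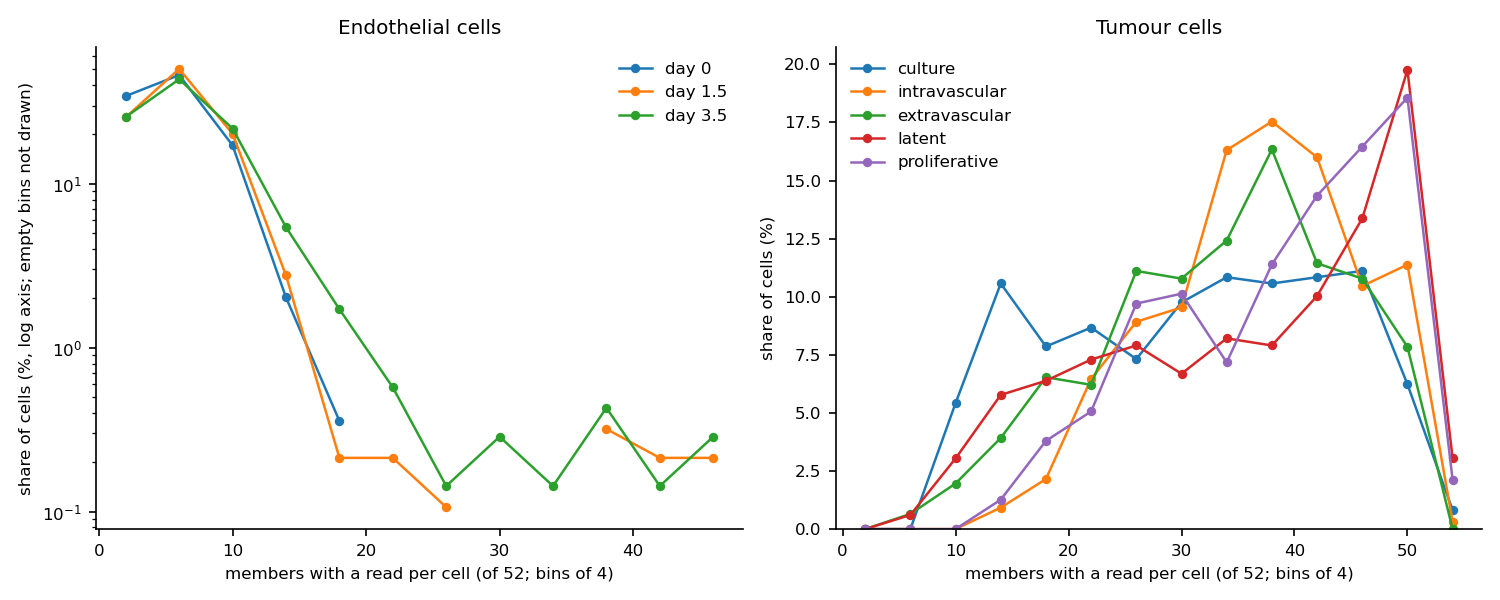
Share of cells (percent, log axis for ECs) against the number of the 52 members with a read in a cell, in bins of 4, for the 3 EC days (left) and the 5 TC groups (right); each line pools the cells of a group. ECs pile up under 12 members with a thin tail to 46 on days 1.5 and 3.5, and TCs spread from 5 to 52.

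To ask whether the resting endothelium changed its mitotic genes after TCs arrived, ECs of days 1.5 and 3.5 were compared with day 0. The 52 members lay higher on both days by a median log2 difference of 0.92 on day 1.5 and 1.32 on day 3.5, against medians of −0.05 and −0.06 over all 17585 genes tested. Both comparisons share the mice of day 0. On day 1.5, 38 members lay above and 14 below day 0, and on day 3.5, 39 above and 13 below. Animals differed widely, and 0 of the 52 members passed an adjusted p of 0.05 in either comparison (edgeR, quasi-likelihood test), beside 0% of all genes. At an unadjusted p under 0.05, 13 members (25%) lay higher on day 1.5, where 4.49% of all genes lay higher at that p and 8.09% differed in either direction, and 17 members (32.7%) lay higher on day 3.5, beside 4.62% higher and 8.76% in either direction. No member lay lower at that p on either day. In 10 members on day 1.5, all of them higher, and in 13 on day 3.5, of which 12 were higher, the animals did not overlap with those of day 0. These are 19.2% and 25% of the members, and over all genes tested the animals did not overlap in 7.48% on day 1.5 (4.7% higher) and in 7.87% on day 3.5 (4.87% higher). DESeq2 on the same sums called 6 members on day 1.5 (Birc5, Cdca3, Cenpe, Cenpf, Ect2, Ndc80), against 2.23% of genes, and 10 on day 3.5 (Aurkb, Birc5, Cdca3, Cenpe, Cenpf, Ect2, Kif11, Nuf2, Top2a, Ube2c), against 2.88%, each of them higher than on day 0. One animal weighed heavily on each day: without EC day 1.5 replicate 3 the median difference fell from 0.92 to 0.38, and without EC day 3.5 replicate 3 it fell from 1.32 to 0.40. The uninjected mice were sorted on both later days, and with the controls of the same sort day alone, the median over 50 members tested was 1.66 on day 1.5 and 1.50 on day 3.5, with 0 members called, beside 0% of genes. In the fits that gave cells equal weight the medians were smaller, but these fits left out members of low level. They cover fewer members than the edgeR medians, and the parts of weighting, scale and set of genes were not tested. The median over 33 members was 0.17 on day 1.5 and 0.23 on day 3.5 in limma on mean log10 values, against 0.12 and 0.13 over all genes in that fit, and over 47 members it was 0.54 and 0.57 in limma on mean CPM, against 0.04 and 0.03.

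Among the genes of mitotic entry, Cdk1, the kinase that drives it, was at 0, 0.0417, 0.0243 and 8.23 CPM in the 4 mice of day 0, at 0.162, 0.0819 and 8.26 CPM on day 1.5 and at 1.76, 0.922 and 52.4 CPM on day 3.5. The groups overlapped, since 1 mouse of day 0 lay as high as the highest of day 1.5. In that mouse the level came nearly whole from 1 cell, which held 98.98% of the Cdk1 reads of day 0. Ccnb2, a B-type cyclin, was at 0, 0.0209, 0.0729 and 2.96 CPM on day 0, at 6.14, 0.0585 and 15.8 CPM on day 1.5 and at 4.56, 0.873 and 25.1 CPM on day 3.5. Its log2 difference from day 0 was 3.14 ± 2.09 (SE; adjusted p = 0.745) on day 1.5 and 3.62 ± 2.13 (adjusted p = 0.671) on day 3.5, and the groups overlapped on both days. Ccnb1, the other B-type cyclin of the list, averaged 1.19 ± 1.95, 1.16 ± 0.227 and 2.52 ± 2.12 CPM (SD; n = 4, 3 and 3). Cks1b and Cks2, small subunits that bind Cdk1, averaged 9.82 ± 13.0 and 3.33 ± 3.62 CPM on day 0, and their log2 differences lay between 0.62 and 1.80 on the later days with overlapping animals. Cdc25c reached 10.4 CPM in 1 mouse of day 1.5 and 2.96 CPM in 1 mouse of day 3.5, and every other mouse of the 3 days lay at or under 0.389 CPM. A single cell held 38.9% of the Cdc25c reads on day 0, 97.05% on day 1.5 and 94.6% on day 3.5.

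Aurkb, the kinase of the chromosomal passenger complex, was read in 0 of 839 ECs of day 0, a count that still permits a share of 0.358% of cells, and its level was 0 CPM in all 4 mice. On day 1.5 it was at 0.0849, 0.0117 and 0.259 CPM and on day 3.5 at 0.335, 2.05 and 4.1 CPM, so that the 3 days did not overlap, though the lowest value of day 1.5 was 1 read, under the floor of 3 reads used below. Against that floor per library in day 0, its mean was at least 60.06-fold higher on day 3.5, and on day 1.5, where 1 of 3 mice stayed under the floor, no fold is given (edgeR, adjusted p = 0.329 and 0.463). Aurka, which acts at spindle poles, was at 0, 0.25, 0 and 0.0729 CPM on day 0, and every mouse of days 1.5 and 3.5 lay between 0.648 and 4.45 CPM, above all mice of day 0. The checkpoint kinase Ttk averaged 0.507 ± 0.519, 0.599 ± 0.15 and 2.42 ± 1.93 CPM on the 3 days. Bub1 was at 0.0607 CPM in 1 mouse of day 0 and 0 in the others, and it was at 0.00772, 1.54 and 0 CPM on day 1.5 and at 0.0324, 0.863 and 3.4 CPM on day 3.5. Nek2, a centrosome kinase, had a read in 1 EC of day 0 and stayed at or under 1.59 CPM in every mouse.

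Ube2c was at 4.24, 2.67, 2.99 and 1.81 CPM on day 0, at 9.78, 7.86 and 53.6 CPM on day 1.5, and at 7.42, 3.35 and 100.1 CPM on day 3.5. All mice of day 1.5 lay above day 0, whereas 1 mouse of day 3.5 lay among them, and the log2 differences were 2.94 ± 1.10 (adjusted p = 0.54) and 3.60 ± 1.13 (adjusted p = 0.451). Cdc20 averaged 1.86 ± 2.54, 3.15 ± 4.41 and 12.1 ± 16.2 CPM. Birc5 (survivin), a subunit of the passenger complex, was at 0.743, 1.02, 4.66 and 1.11 CPM on day 0, at 25, 5.06 and 36.7 CPM on day 1.5 and at 18.9, 4.79 and 60.7 CPM on day 3.5, with no overlap between day 0 and either later day. Its log2 differences were 3.51 ± 1.02 (adjusted p = 0.473) and 3.85 ± 1.04 (adjusted p = 0.405). Cdca8 (borealin), of the same complex, went the other way in its mean, from 19.9 ± 22.2 CPM on day 0 to 3.93 ± 3.92 and 7.74 ± 3.92 CPM, with overlapping animals. A single cell held 59% of the Cdca8 reads on day 0, 35.3% on day 1.5 and 25.9% on day 3.5. Cdca3, which triggers the destruction of the Cdk1 inhibitor Wee1, was at or under 0.0926 CPM in all mice of day 0 and between 0.346 and 7.12 CPM in all mice of the later days.

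At the centromere, Cenpe, the motor that moves chromosomes to the spindle equator, had 1 read in 1 of the 4 mice of day 0. It was at 4.7, 0.0935 and 16.8 CPM on day 1.5 and at 0.443, 0.049 and 0.816 CPM on day 3.5, and all 6 mice lay above day 0. This was the member with the smallest p on day 1.5 (adjusted p = 0.383), and since day 0 rested on that read no fold is given. Cenpf was at 5.14, 3.12, 3.52 and 5.46 CPM on day 0, at 5.86, 23.7 and 58.9 CPM on day 1.5 and at 17.6, 9.38 and 56.5 CPM on day 3.5, above day 0 in every mouse, with log2 differences of 2.68 ± 0.81 (adjusted p = 0.485) and 2.62 ± 0.81 (adjusted p = 0.445). The Ndc80 complex couples kinetochores to microtubules, and its subunits Ndc80 and Nuf2 are both members. Ndc80 averaged 2.14 ± 0.9, 7.33 ± 1.65 and 5.45 ± 2.79 CPM and lay above day 0 in every mouse of day 1.5. Nuf2 averaged 0.726 ± 0.363, 2.02 ± 1.52 and 9.86 ± 7.42 CPM and lay above day 0 in every mouse of day 3.5, and in limma on mean log10 values that difference was −0.00454. Cenpa, the histone of centromeres, averaged 7.0 ± 6.04, 13.9 ± 12 and 21.6 ± 11.7 CPM with overlapping animals.

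**Figure D2:**
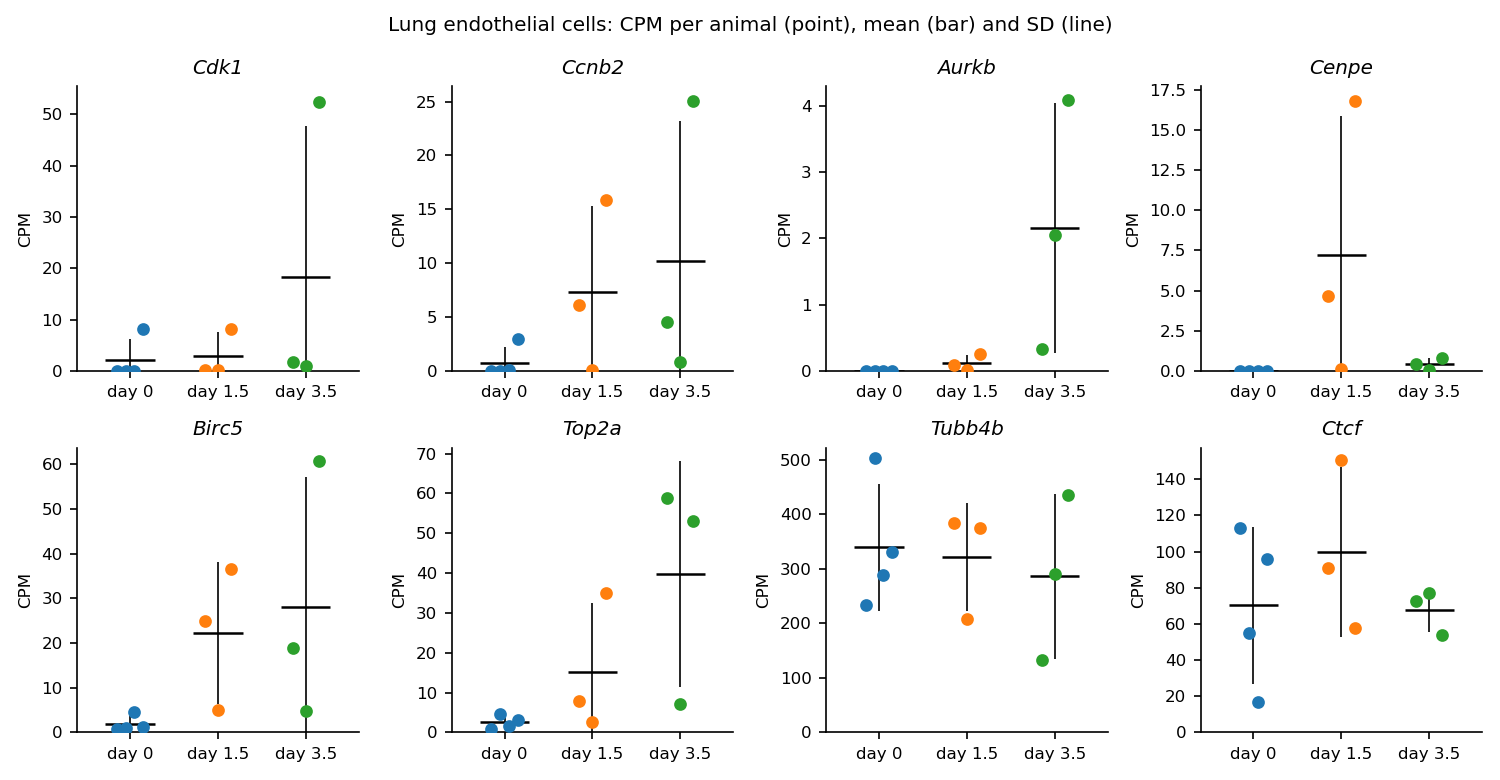
Level in ECs (CPM, linear axes from 0) of 8 members in each animal of day 0 (4 mice), day 1.5 (3) and day 3.5 (3); points are animals, bars means and vertical lines 1 SD, with the lines not drawn below 0. Aurkb, Cenpe and Birc5 lie higher in every animal of days 1.5 and 3.5 than on day 0, Cdk1 rests on 1 animal of each day, and Tubb4b and Ctcf overlap.

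Among chromosome factors, Top2a, the topoisomerase that untangles sister chromatids, was at 0.938, 4.5, 1.63 and 3.09 CPM on day 0, at 7.89, 2.52 and 35 CPM on day 1.5 and at 58.8, 7.16 and 53.2 CPM on day 3.5. Days 0 and 3.5 did not overlap (log2 difference 3.89 ± 1.02, adjusted p = 0.405; 0.43 in limma on mean log10 values), and 1 mouse of day 1.5 lay within day 0. Mki67 (Ki-67), which coats mitotic chromosomes, was at 0.0926, 1.11, 1.35 and 0 CPM on day 0 and at 8.37, 16.1 and 33.5 CPM on day 3.5, again without overlap, whereas on day 1.5 it was at 0.0154, 0.222 and 12.8 CPM. Hmgb2, a DNA-bending protein, averaged 62.5 ± 9.77 CPM on day 0, 107 ± 61.9 CPM on day 1.5 and 168 ± 101 CPM on day 3.5, and the share of ECs with a read of it was 17.8%, 22.8% and 37.2%. Smc4, a condensin subunit, averaged 70.4 ± 28.6, 48.2 ± 26.5 and 33.8 ± 21.1 CPM, so that its mean was lowest on day 3.5, with a log2 difference from day 0 of −1.13 ± 0.54 (adjusted p = 0.589).

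For the spindle and the cleavage furrow the values were as uneven. Kif11, the motor that pushes the spindle poles apart, was at or under 0.498 CPM in all mice of day 0 and at 3.42, 0.715 and 3.5 CPM on day 3.5, without overlap. Tpx2, which activates Aurka on the spindle, was at 0.257, 0.139, 3.73 and 0 CPM on day 0, and it averaged 7.41 ± 10.2 and 6.04 ± 3.23 CPM later. Ect2, which activates RhoA at the division plane, was at 0 in all 4 mice of day 0. It was at 17, 0 and 4.44 CPM on day 1.5 and at 0, 0 and 12.8 CPM on day 3.5, and since 1 and 2 mice of these days stayed at 0 no fold is given. A single cell held 80.9% of the Ect2 reads on day 1.5 and 51.8% on day 3.5. Anln (anillin), a scaffold of the furrow, was at 3.22, 2.34, 2.47 and 3.73 CPM on day 0 and at 6.18, 6.82 and 14.2 CPM on day 1.5, without overlap, and it overlapped with day 0 on day 3.5. Gtse1, chosen after its values were seen, had a read in 1 mouse of day 0 (0.0132 CPM) and reached 2.64 and 3.79 CPM in replicate 3 of days 1.5 and 3.5.

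A few members also have roles outside division. Tubb4b, a beta-tubulin used by all microtubules, averaged 339 ± 117, 322 ± 99.2 and 286 ± 151 CPM on the 3 days. Cbx5 (HP1 alpha), which binds heterochromatin, averaged 124 ± 21.6, 96.7 ± 41.8 and 110 ± 10.2 CPM, and Ctcf, which sets chromatin loops, 70.2 ± 43.2, 99.8 ± 47.1 and 67.8 ± 12.2 CPM. The nuclear envelope proteins Lbr and Tmpo averaged 63.9 ± 11.9 and 44.8 ± 18.9 CPM on day 0, with log2 differences between −0.52 and 0.41 on the later days. Every one of these 5 genes had overlapping animals in both comparisons with day 0.

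The members not yet named were mostly at levels that did not set the days apart in ECs, and they were named after their values were seen. The condensin subunit Ncapd2 was at or under 0.834 CPM in all mice of day 0 and at 3.2, 9.76 and 2.15 CPM on day 1.5, without overlap (log2 difference 3.62 ± 1.28), and the spindle factor Hmmr was at or under 3.47 CPM on day 0 and at 10.4, 4.39 and 34.7 CPM on day 3.5, also without overlap (2.65 ± 1.02). Kif23, a motor of the central spindle, was the 1 member that lay lower without overlap, at 22.6, 11.2, 8.67 and 12.9 CPM on day 0 and 7.41, 6.83 and 5.87 CPM on day 3.5 (−1.11 ± 0.55). Nusap1, Ckap2, Kif20b, Kif2c, Rangap1, Cdca2, Ckap5, G2e3, Hjurp, Psrc1, Dlgap5, Tacc3, Anp32e and Ckap2l had overlapping mice in both comparisons with day 0. Of these, Tacc3, Ckap2l and G2e3 were among the 3 members of largest fall in a comparison with day 0. Tacc3 averaged 3.30 ± 4.36, 0.95 ± 1.11 and 0.50 ± 0.31 CPM on the 3 days, and Ckap2l 9.84 ± 14.4, 4.36 ± 4.09 and 7.61 ± 6.48 CPM.

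Between days 1.5 and 3.5 the members showed little difference that stood out from the animals. Of the 52, 29 lay higher and 23 lower on day 3.5, with a median log2 difference of 0.14, and 0 were called beside 0% of all genes. At an unadjusted p under 0.05, Aurkb and Nuf2 lay higher and Cenpe lower, 3 members or 5.77%, against 4.54% of all genes. The median fell to −0.61 without EC day 3.5 replicate 3 and was 0.74 without EC day 1.5 replicate 3. These days were also sorted on different days, so that time and sort day cannot be told apart.

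The members of few ECs made up much of these levels. The limit of 20 or more of the 52 members in a cell was set after the counts had been seen, and it was met by 0 of 839 ECs on day 0 (highest count 18), by 10 of 941 on day 1.5 and by 14 of 699 on day 3.5. By animal these were 1, 1 and 8 cells on day 1.5 and 2, 2 and 10 cells on day 3.5, so that replicate 3 of each day held most of them. With a limit of 10 members the share of cells was 4.05 to 12.3% on day 0, 7.03 to 14.3% on day 1.5, which overlapped with day 0, and 12.4 to 24.1% on day 3.5. With a limit of 30 it was 0 in all mice of day 0, 0, 0.341 and 1.79% on day 1.5 and 0.376, 0.469 and 2.73% on day 3.5. The 24 cells gave 20.8% of all member reads on day 1.5 and 27.4% on day 3.5. They held a median of 38 members on day 1.5 and 32.5 on day 3.5, and the lowest counts inside the limit were 20, 20, 20 and 21. They were also deeper than the others, with a median of 4211.5 and 4113 detected genes against 2582 and 2676, and 526520 and 520060 reads against 322620 and 346580. With every cell thinned to 50000 reads the share of cells with 20 or more members was 0 in all 4 mice of day 0, 0, 0.357 and 1.87% on day 1.5 and 0.84, 0.575 and 3.02% on day 3.5.

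Marker genes of other cell types were looked up in the 24 cells. The authors had already removed ECs by expression of Ptprc, Itgam, Itgax, Adgre1 and Cd3e and of all 7 mural and stromal genes looked up here, so that low values of these genes in kept cells are in part set by that step. Csf1r, Cd68 and the epithelial genes were not named for it. Pecam1, Egfl7 and Ptprb were read in all 24, Cldn5 in 23, Cdh5 and Tie1 in 20 and Kdr in 15, 7 of 7 endothelial genes. Of 7 immune genes, Ptprc, Itgax, Adgre1 and Cd3e were at 0, Cd68 was read in 3 cells and Itgam and Csf1r in 1 each. Among 7 epithelial genes of the 4T1 line, Krt19 and Cldn7 were at 0, Epcam, Krt8 and Cldn4 were read in 1 cell each, Krt18 in 2 and Krt7 in 6 (25%, against 16.4% of the other ECs). Of 7 mural and stromal genes Pdgfrb, Des, Myh11, Col1a2 and Cspg4 were at 0, Pdgfra was read in 1 cell and Acta2 in 5 (20.8%, against 7.25%). By level, Acta2 was at 59.5 CPM in the 24 cells and 2.12 CPM in the other ECs of the 3 days, Cd68 at 23.4 and 7.72 CPM (12.5% of the 24 cells against 3.79% of the others), Krt8 at 8.95 and 1.03 CPM and Krt18 at 11.1 and 2.60 CPM. Cdh5 was at 246.5 and 769.7 CPM, Cldn5 at 2203 and 4516 CPM and Kdr at 171.8 and 475.8 CPM. Tie1 was at 359.7 and 504.3 CPM, Ptprb at 1335 and 1741 CPM and Pecam1 at 1392 and 1582 CPM, so that 6 of the 7 endothelial genes were lower in the 24 cells, and Egfl7 was at 3615 and 3539 CPM. Over whole libraries the epithelial genes summed to 5.18 to 18.5 CPM on day 0, 9.6 to 21.6 on day 1.5 and 3.33 to 8.46 on day 3.5, the immune genes to 3.37 to 40, 6.34 to 20.5 and 2.02 to 12.4 CPM, and the mural and stromal genes to 1.17 to 26.2, 3.27 to 15.2 and 2.27 to 14.2 CPM. The part of such reads in the results was not tested.

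How far a member belonged to these 24 cells varied from gene to gene. They held 98.4% of all EC reads of Bub1, 96.6% of Gtse1, 93.3% of Cdc25c, 92% of Ccnb2, 86.4% of Cdk1, 86.3% of Mki67, 82.5% of Aurkb, 80.1% of Birc5, 77.2% of Top2a and 72.8% of Ube2c. Cdk1 was read in 22 of the 24 cells and in 1.75% of the other 2455 ECs, and Ccnb2 in 20 and 1.02%. At the other end they held 1.23% of the reads of Ctcf, 1.51% of Anp32e, 4.15% of Cbx5, 4.51% of Tubb4b, 5.42% of Tmpo, 5.96% of Dlgap5 and 8.37% of Smc4. Dlgap5, which encodes a spindle protein and was chosen after its values were seen, was read in 51.4% of the other ECs, as widely as Tubb4b (49.4%) and more widely than Smc4 (42.1%). Ube2c, Birc5 and Top2a lay between, with most reads in the 24 cells but a read in 16.5%, 10.2% and 10.7% of the others. Since the cells were chosen by their number of members, these shares describe the cells and carry no test.

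**Figure D3:**
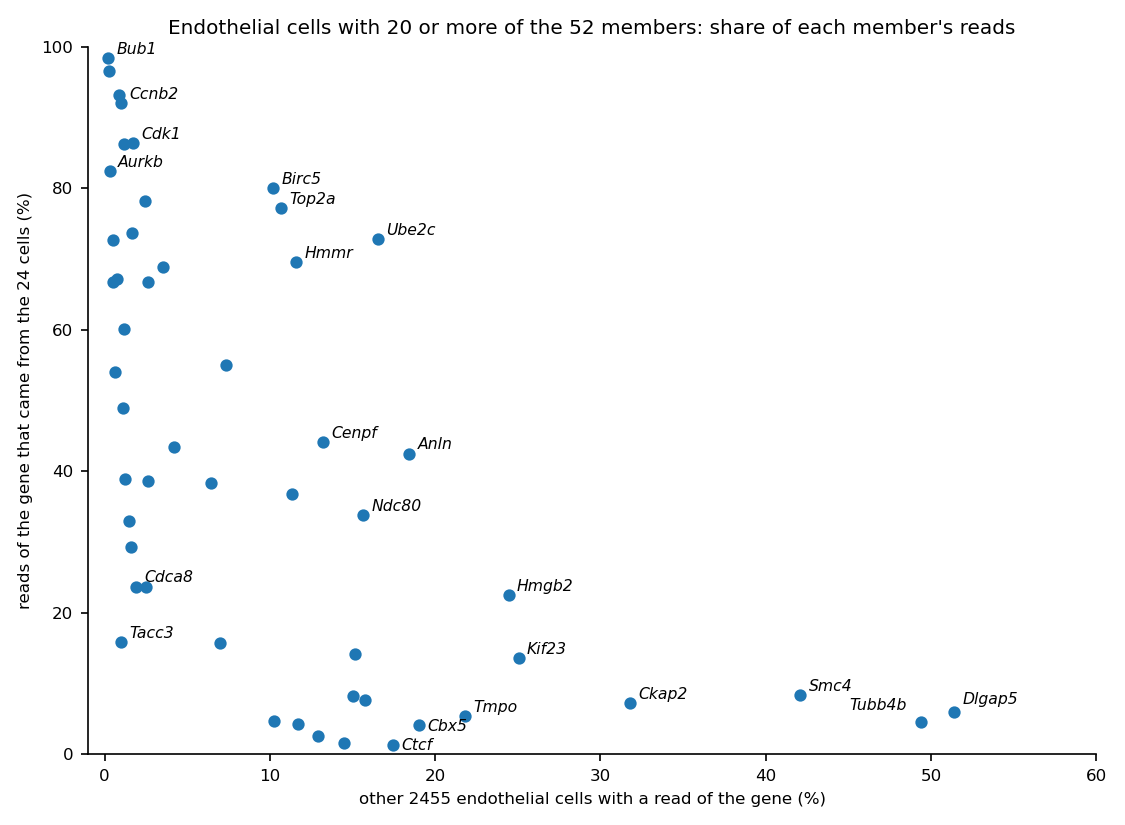
For each of the 52 members, the share of its EC reads that came from the 24 ECs with 20 or more members (percent, vertical axis) against the share of the other 2455 ECs with a read of it (percent, horizontal axis); points are genes, some of them named. Bub1, Ccnb2, Cdk1 and Aurkb sit at the upper left, Ube2c, Birc5 and Top2a high with a broader base, and Tubb4b, Dlgap5 and Smc4 at the lower right.

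Cell cycle genes outside the 52 were also read in larger number in these cells. The counts were taken at full depth and these cells were deeper than the others, and the part of depth was not tested. The median cell of the 24 had reads of 18.5 (day 1.5) and 17 (day 3.5) of 43 S-phase genes, which copy and repair DNA, against 6 in the other ECs of each day. Of 59 further mitosis genes, a list of named mitotic regulators outside the 52, it had 29.5 and 23, against 4. In the comparisons of animals the further mitosis genes lay higher by a median log2 difference of 1.05 on day 1.5 (47 above and 11 below day 0) and 1.72 on day 3.5 (49 and 9), with 16 and 22 of 58 at an unadjusted p under 0.05, 15 and 20 of them higher, and 0 called. Ccna2, the cyclin of S phase and early mitosis, and Cdkn3, a phosphatase that acts on cyclin-dependent kinases, had the smallest p of that list on both days (adjusted p = 0.301 and 0.324 on day 1.5, 0.36 and 0.262 on day 3.5). S-phase genes had medians of 0.02 and 0.20, with 22 and 26 of 43 above day 0, so that they lay closer to the median of all genes than the members did.

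In TCs the mitotic genes were read throughout, and the gates were compared to ask whether position in or outside the vessel, and dye loss, went with their levels. Extravascular and intravascular TCs of day 1.5 differed in 2 of 52 members in the edgeR test (3.85%), beside 0.951% of all 19249 genes. Tacc3, which stabilises spindle microtubules, rose in extravascular TCs and Ube2c fell. The median log2 difference over the members was 0.11, with 32 above and 20 below 0, against −0.01 over all genes. Tacc3 was at 35.5, 33.3, 30.9 and 26.3 CPM in the 4 intravascular libraries and at 53.3, 62, 67.9 and 63.4 CPM in the 4 extravascular ones, without overlap (log2 difference 0.89 ± 0.18, adjusted p = 0.0441). Ube2c was at 357, 429, 463 and 403 CPM intravascular and at 205, 293, 261 and 235 CPM extravascular, also without overlap (−0.81 ± 0.15, adjusted p = 0.0314). Both gates came from the same 4 mice, and with the animal as a block neither gene stayed under the threshold (Tacc3 adjusted p = 0.111, Ube2c 0.0826, 0 members called, beside 0.0052% of genes), though the differences stayed at 0.89 and −0.82. Leaving out 1 library ended the call of Tacc3 for 7 of the 8 libraries, all but extravascular replicate 1 (adjusted p 0.0741 to 0.114), and that of Ube2c for 6, all but extravascular replicates 1 and 2 (0.0562 to 0.0927). Tacc3 (chr5:33658128-33678995, GRCm38) shares 289 exonic bases with Tmem129 and Ube2c (chr2:164769898-164778822) 592 with Tnnc2, each on the other strand, and such reads cannot be told apart.

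Other members gave values in both directions, and none of them passed the edgeR test. DESeq2 also called Cdc20 (adjusted p = 0.0266), Anln (0.0246) and Ndc80 (0.0494), all higher in extravascular TCs, and Cenpf, which was lower (0.0369), beside 9.06% of genes. Cdc20, the partner of Ube2c at the APC/C, averaged 81.8 ± 29.7 CPM intravascular and 148 ± 28.4 CPM extravascular (log2 difference 0.78 ± 0.25, adjusted p = 0.136). Anln averaged 138 ± 10.8 and 190 ± 24.7 CPM without overlap (0.38 ± 0.11, adjusted p = 0.106). Cenpf averaged 212 ± 26.9 and 169 ± 17.4 CPM (−0.41 ± 0.13, adjusted p = 0.128), called lower by limma on mean CPM as well (adjusted p = 0.0151), and Ndc80 33.2 ± 5.1 and 48.5 ± 8.25 CPM (0.47 ± 0.16, adjusted p = 0.163). Cdk1 (232 ± 64.4 and 224 ± 31.6 CPM), Ccnb2 (190 ± 25.0 and 198 ± 30.8 CPM), Top2a (165 ± 18.4 and 166 ± 14.6 CPM) and Mki67 (102 ± 25.4 and 97.7 ± 9.77 CPM) had overlapping animals, with log2 differences between −0.13 and −0.02. When each cell was instead given equal weight on the deposited log10 scale, limma called 15 members, all lower in extravascular TCs, against 12.6% of genes. Ube2c and Cdk1 were among these 15, and for Tacc3 the difference on that scale was 0.07 (adjusted p = 0.929). Limma on mean CPM, which also weights cells equally, called Tacc3 higher in extravascular TCs (0.70 ± 0.18, adjusted p = 0.0359). It called Ube2c (−0.83 ± 0.12, adjusted p = 0.00129) and Cenpf lower. The parts of cell weight and of scale in these calls were not tested.

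The next comparison shares the extravascular libraries with this one. Latent TCs of day 3.5 differed from extravascular TCs of day 1.5 in 5 members (9.62%), beside 8.57% of all genes. Ube2c, Cdk1 and Aurkb rose and Anp32e and Lbr fell, with a median over the members of −0.02 (24 above, 28 below 0). Ube2c was at 632, 461, 634 and 584 CPM in latent TCs, above all extravascular libraries given before (log2 difference 1.08 ± 0.15, adjusted p = 0.000545). Cdk1 was at 195, 246, 256 and 198 CPM extravascular and at 460, 445, 508 and 396 CPM latent (0.87 ± 0.18, adjusted p = 0.00972), and Aurkb at 10.1, 15.8, 12.6 and 20.6 CPM and at 31.4, 49.4, 45.5 and 40.7 CPM (1.36 ± 0.32, adjusted p = 0.0184). Neither gene overlapped between the gates. Anp32e, a histone chaperone that removes the variant H2A.Z, was at 100.3, 101.9, 138.6 and 126.2 CPM and at 85.2, 63.9, 92.3 and 83.6 CPM (−0.65 ± 0.15, adjusted p = 0.0159). Lbr, which tethers heterochromatin to the envelope, averaged 49.3 ± 9.4 and 28.2 ± 0.599 CPM (−0.94 ± 0.23, adjusted p = 0.0206), again without overlap, and it shares 440 exonic bases with Dnah14 on the other strand. The gates came from different mice, which the replicate number does not pair, and this number as a block left the count at 5, beside 8.19% of genes. The call of Aurkb was lost without extravascular replicate 1 or 3 (adjusted p = 0.0502 and 0.0544), and that of Lbr without extravascular replicate 4 or latent replicates 1, 2 or 3 (0.0507 to 0.0639). Limma on the log10 scale called 21 members, 15 higher and 6 lower, against 35.5% of genes, and Lbr was not among them (−0.62, adjusted p = 0.0803).

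The partners of these genes did not pass the edgeR test here. Ccnb1 averaged 65.4 ± 4.33 CPM extravascular and 80.7 ± 19.3 CPM latent and Ccnb2 198 ± 30.8 and 213 ± 43.1 CPM, with log2 differences of 0.17 ± 0.21 and −0.02 ± 0.17. Birc5 and Cdca8, which act with Aurkb in the passenger complex, differed by 0.05 ± 0.16 and 0.26 ± 0.14 and Cdc20 by 0.14 ± 0.24. On the log10 scale with cells of equal weight, limma called Birc5 (−1.11 ± 0.22, adjusted p = 9.7e-05) and Ccnb2 (−1.05 ± 0.26, adjusted p = 0.0013) lower in latent TCs, and Cdk1 (1.41 ± 0.23) and Aurkb (1.65 ± 0.26) higher. Of the S-phase genes, 0 rose and 9 of 43 fell, and of the further mitosis genes 5 rose and 6 of 59 fell, beside the 8.57% of all genes called in either direction, with the smallest p for Fzr1, the APC/C activator of late mitosis and G1 (log2 difference 1.06 ± 0.15), and Bub3, a checkpoint protein (0.79 ± 0.16).

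**Figure D4:**
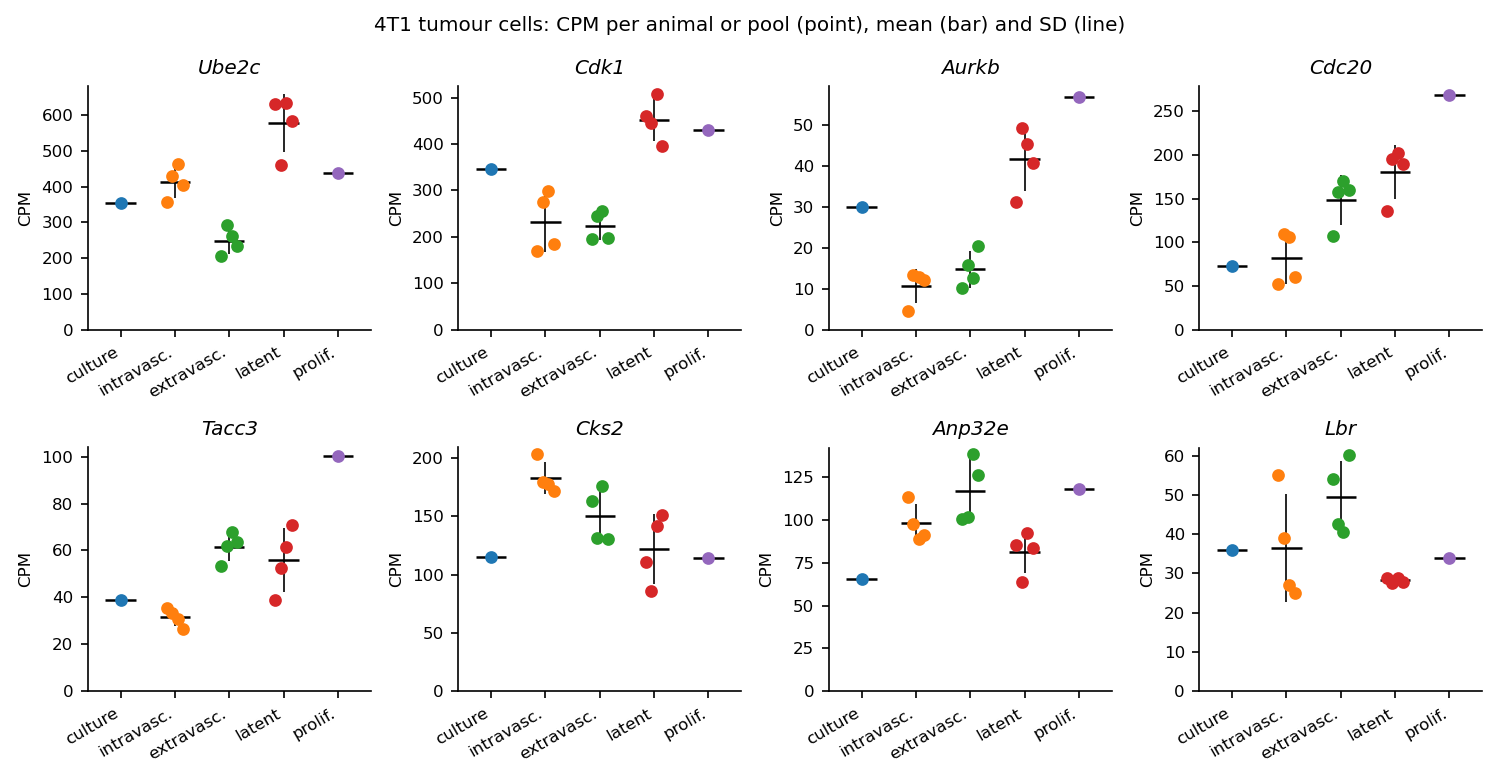
Level in TCs (CPM, linear axes from 0) of 8 members in each library; points are animals of the intravascular, extravascular and latent gates (4 each) and single pools of culture and the proliferative gate, bars are means and vertical lines 1 SD. Ube2c is lowest in extravascular TCs, Cdk1 and Aurkb are higher in both day 3.5 gates than in both day 1.5 gates, and Tacc3 is highest in the proliferative pool.

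The proliferative gate was a single pool with no replicate, and its comparison with intravascular TCs assumes that the pool varies as the other groups do. Under that assumption 3 members were called (5.77%), all higher in the pool, beside 4.54% of genes. Tacc3 was at 100.2 CPM in the pool (log2 difference 1.47 ± 0.26, adjusted p = 0.00966), above 26.3 to 35.5 CPM in the 4 intravascular libraries. Aurkb was at 57 CPM, against 4.51, 13.4, 12.8 and 12.2 CPM (2.20 ± 0.44, adjusted p = 0.015), and Cdc20 at 268 CPM, against 52.1, 109, 106 and 60.5 CPM (1.50 ± 0.35, adjusted p = 0.0309). The call of Cdc20 was lost without intravascular replicate 4 (adjusted p = 0.0626). Tubb4b was at 1250.2 CPM, against 408 to 746 CPM, a difference of 0.90 ± 0.25 that did not pass (adjusted p = 0.0625). Cks2 was lower, at 115 CPM against 172 to 203 CPM (−0.88 ± 0.30, adjusted p = 0.129). Mki67 was at 87.6 CPM, within the intravascular range of 79 to 138 CPM, and Top2a at 184 CPM, within 145 to 188 CPM. With the replicate number as a block, 5 members were called (9.62%), 4 of them higher, beside 3.26% of genes. Of 43 S-phase genes 7 were called higher and 1 lower without the block, beside the 4.54% given above.

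Latent and proliferative TCs, the gates set apart by dye, were compared within day 3.5. Of the 52 members 26 lay higher and 26 lower in latent TCs, with a median log2 difference of 0.02 against 0.08 over all genes, and 0 were called beside 0% of genes. At an unadjusted p under 0.05 there were 4 members (7.69%, against 5.08% of genes): Cenpf and Ckap2l, a spindle protein, lay higher and Tacc3 and Anp32e lower in latent TCs. Cenpf was at 203, 206, 239 and 270 CPM in latent libraries and 154 CPM in the pool (0.57 ± 0.21, adjusted p = 0.906), and Tacc3 at 38.8, 52.3, 61.6 and 70.8 CPM and 100.2 CPM (−0.85 ± 0.27, adjusted p = 0.778). Limma on the log10 scale called 2 members, against 0.557% of genes, and both were lower in latent TCs: Ccnb2 (−1.83 ± 0.41, adjusted p = 0.0196) and Birc5 (−1.49 ± 0.35, adjusted p = 0.0259). By the annotation latent replicate 4 came from the mouse of the pool, though with 4 replicates labelled the pool may hold other mice too. Between this library and the pool Tacc3 was at 70.8 against 100.2 CPM, Cenpf at 270 against 154 CPM, Mki67 at 92.5 against 87.6 CPM and Cdk1 at 396 against 430 CPM. S-phase genes lay apart from this: all 43 were lower in latent TCs, with a median of −0.49 and 19 at an unadjusted p under 0.05, and again 0 called. The further mitosis genes had a median of −0.17, with 18 above and 41 below 0.

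A further pair of comparisons was added after the data had been seen, and each shares libraries with those above. Latent and intravascular TCs differed in 10 members (19.2%), beside 11.5% of genes. Anln, Aurkb, Cdc20, Cdk1, Ckap2l, Gtse1, Ndc80, Tacc3 and Tubb4b were higher and Cks2 was lower in latent TCs. Cks2 was at 203, 180, 177 and 172 CPM intravascular and at 110, 85.7, 141 and 151 CPM latent (−0.79 ± 0.18, adjusted p = 0.0107). Tubb4b averaged 582 ± 153 and 1031 ± 121 CPM (0.61 ± 0.17, adjusted p = 0.0338). Proliferative and extravascular TCs differed in 0 members, beside 0.696% of genes.

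From cell to cell, the latent gate held more cells with many members than the intravascular gate, and at full depth also more with few. The share of cells with fewer than 20 members lay between 2.38 and 5% in the 4 intravascular libraries, between 4.88 and 17.3% in extravascular and between 8.75 and 20% in latent ones, with 5.06% in the proliferative pool and 23.8% among cultured TCs. The share with 40 or more members lay between 36.9 and 39.2%, between 20 and 37.7% and between 41.2 and 52.5%, with 51.5% in the pool and 29% among cultured TCs. With cells thinned to 50000 reads, 40 or more members were read in 10.8 to 13% of intravascular, 5.06 to 14.5% of extravascular and 19 to 24.7% of latent TCs. Fewer than 20 members were then read in 16.9 to 30.1%, 26.6 to 38.7% and 26.6 to 39.3% of these cells. The latent libraries overlapped with neither day 1.5 gate in the share with many members at either depth. In the share with few they lay apart from the intravascular ones at full depth and overlapped with them after thinning. Latent cells also showed more genes at equal depth, and the median number of detected genes after thinning was 4357.5 to 4492 in latent, 3865 to 4098 in intravascular and 3488 to 3993 in extravascular libraries, without overlap between latent and either other gate. The part of this in the number of members was not tested. These shares hold for the sorted gates and not for all TCs of the lung.

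For each TC group it was computed how closely each member followed the other 51 from cell to cell, as the Spearman correlation over cells thinned to 50000 reads. These cells share libraries and depth, so the values are a description. Ordered by the lowest value over the 5 groups, Ube2c came first (0.71 to 0.89), ahead of Cenpe (0.67 to 0.82), Birc5 (0.64 to 0.86), Hmmr (0.62 to 0.79), a spindle assembly factor, and Cdca8 (0.61 to 0.84). The order was not the same in every group, since in the proliferative pool Cenpe (0.78) lay above Ube2c (0.76) and in culture Birc5 and Ube2c were both at 0.83. Cdk1 lay between 0.53 and 0.78 and Mki67 between 0.57 and 0.71. At the lower end were Cbx5 (0.04 to 0.26), Ctcf (0.13 to 0.28), Hjurp, the chaperone that loads Cenpa (0.15 to 0.43), Psrc1, which binds spindle microtubules (0.21 to 0.36), Tmpo (0.22 to 0.32) and Lbr (0.23 to 0.30). The largest differences between groups were in Cks1b, from 0.33 in the proliferative pool to 0.72 in latent TCs, and Aurkb, from 0.33 in intravascular to 0.69 in latent TCs. Hmmr, Hjurp and Psrc1 were named after their values were seen.

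**Figure D5:**
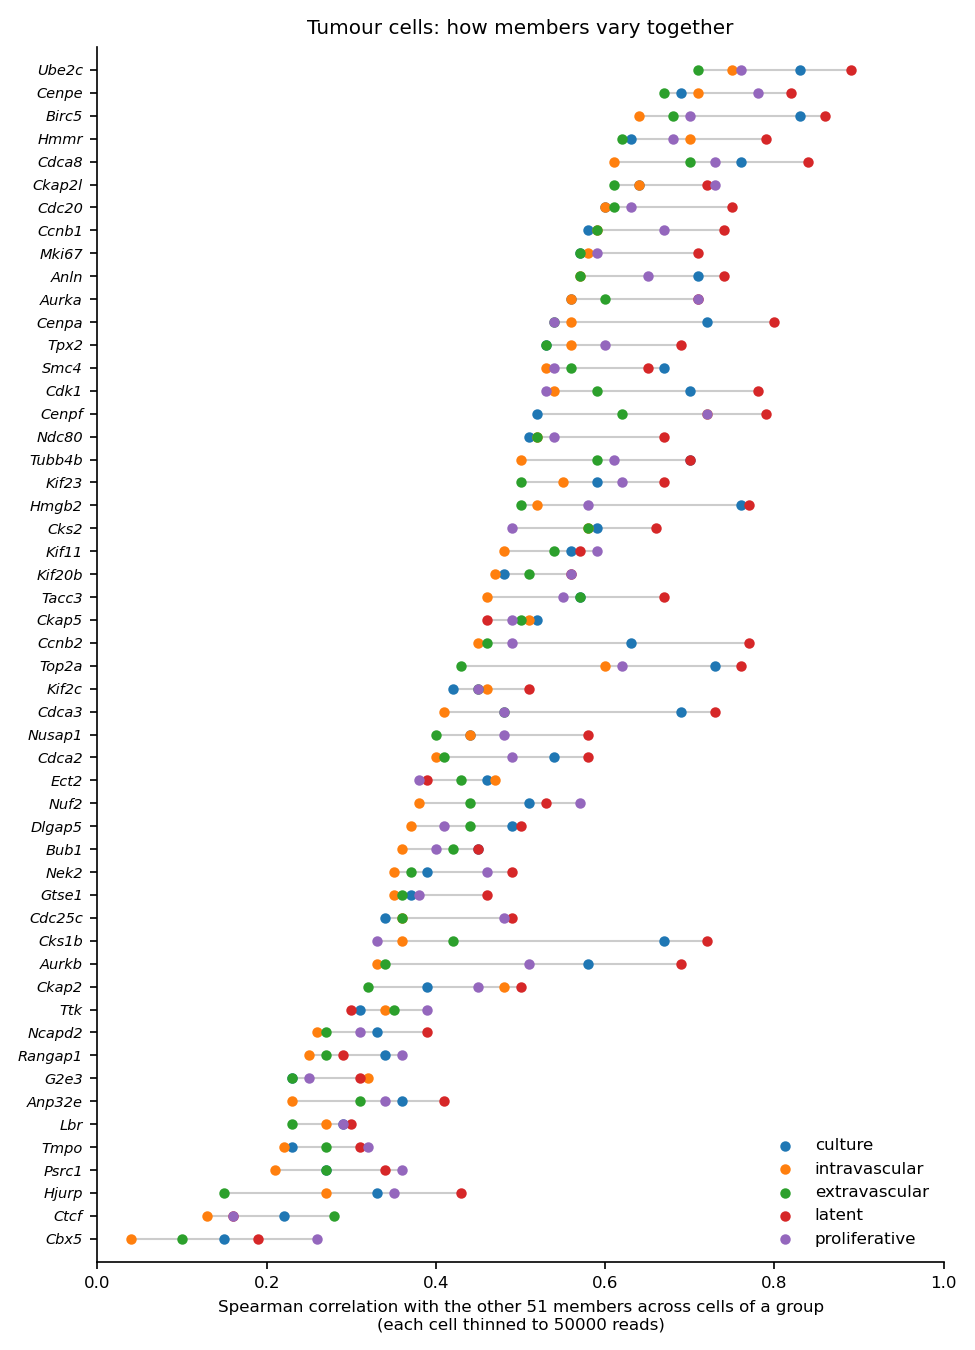
Spearman correlation (horizontal axis, 0 to 1) of each of the 52 members with the other 51 members across the cells of a TC group, with cells thinned to 50000 reads; points are the 5 groups, grey lines their range, and genes are ordered by their lowest value. Ube2c, Cenpe and Birc5 stand at the top and Hjurp, Ctcf and Cbx5 at the bottom, and the latent gate has the highest value for most genes.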

How the data were processed

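Lung ECs and 4T1 TCs were profiled cell by cell with SMART-Seq2. The authors deposited estimated counts per gene for every sorted cell (bcl2fastq, then Salmon 0.7.2 on GRCm38 as named in the submitters' processing notes; the annotation release was not given in the sources used here) and log10 values of the cells they kept, made by dividing counts by the mean over housekeeping genes detected in that cell, multiplying by 10000 and adding 1. Checked on the deposited tables, over 99% of values were matched in this way in each of the 2479 ECs and 1566 TCs kept with 8 housekeeping genes found. The deposited annotation of cells, a label and not a measurement, gave gate, day and animal. The authors kept ECs with at least 1000 and TCs with more than 2500 detected genes and a low share of mitochondrial reads, and took contaminating cells out of the ECs by immune, stromal and mural marker genes. A table of capillary ECs alone was not used, 1 immune marker is not reported here, and 0 columns of other samples were left out.

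Groups came from the labels, and the sums of kept cells per animal and group were the replicates: 10 EC libraries, and 13 TC libraries in the fit. The fit had been laid out for 16 TC libraries, and the proliferative gate entered as 1 pool. Labels do not say whether mice of a group shared a litter or cage, and p-values measure the spread between these mice. Estimated counts were rounded and tested with the quasi-likelihood test of edgeR 4.0.16 (R 4.3.3; TMM scaling, filterByExpr, Benjamini-Hochberg adjustment over all genes tested, threshold 0.05), which kept 17585 genes in ECs and 19249 in TCs. Alternatives were DESeq2 1.42.0, its size factors, no filter on low counts, limma 3.58.1 on mean log10 values (mean of at least 0.05, differences given on the log2 scale) and on log2 of the mean CPM plus 1 (mean CPM of at least 1), leaving out each library, and a replicate block. Cells were thinned to 50000 reads with a fixed seed, leaving out shallower cells (182 ECs and 31 TCs). Promoters came from RefSeq on GRCm38. The scripts were tested on simulated data with Python 3.11.15.

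Extravascular and intravascular libraries of 1 replicate number came from the same mouse by the annotation, and the deviations of these pairs from their group means correlated by 0.0401, −7.93e-05, 0.0166 and −0.00739. The genes described in full were fixed by a rule: 33 members by role, and for each comparison the 3 members with the smallest p and the 3 with the largest rise and fall. The members and all lists were chosen with earlier results of these data known. Depth was 75.6 to 129.5 M (1000000) reads per EC library and 31.9 to 163.48 M per TC library. Reads have no molecular identifiers, so limits given for a count of 0 (3 reads or cells) cover counting error only, and doublets were not called, since each well was sorted as 1 cell.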

Additional observations from a re-analysis of the deposited data

Results flagged for a closer look

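Of 141 groups of 4 libraries tested with Dixon's criterion, 13 had a library apart from the others. In ECs of day 0 these were Birc5 in replicate 3 (4.66 CPM, the others 0.743 to 1.11), Bub1 in replicate 3 (0.0607 CPM, the others 0), Ccnb1 in replicate 2 (4.12 CPM, the others 0.119 to 0.356), Ccnb2 in replicate 4 (2.96 CPM, the others up to 0.0729), Cdk1 in replicate 4 (8.23 CPM, the others up to 0.0417), Cenpe in replicate 2 (0.0104 CPM, the others 0), Nek2 in replicate 4 (0.911 CPM, the others 0) and Tpx2 in replicate 3 (3.73 CPM, the others up to 0.257). A single cell held 98.98% of the Cdk1 reads of day 0, 68.7% of those of Ccnb2, 67.9% of those of Ccnb1, 71% of those of Tpx2 and 100% of those of Nek2. The median number of members in a cell was 4 in EC day 0 replicate 1, against 5 in the others. Dixon's criterion assumes normally spread values. Where the other libraries share a single value, as for Bub1, Cenpe, Nek2 and this median, any other value is flagged. The 13 are therefore not set against a chance rate.

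In TCs the median number of members was 32 in extravascular replicate 1, against 34.5 to 35 in the others. Intravascular replicate 1 had 4.51 CPM of Aurkb, against 12.2 to 13.4, intravascular replicate 2 had 177.7 CPM of Smc4, against 155 to 156.4, and in intravascular replicate 3 95% of cells had 20 or more members, against 97.5 to 97.6%.

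Sorted ECs that the authors did not keep were outside every comparison. Of these, 3 of 452 on day 3.5 had 20 or more members (highest count 45), against 0 of 313 on day 0 and 0 of 211 on day 1.5, and all 3 had a read of Pecam1 and none of Ptprc.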

How the results depend on the processing

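Counts of members called changed by more than 1.5 times under these alternatives, and the cause was not tested. Shares in brackets are of all genes in the same fit. DESeq2 called 6 members in ECs of day 1.5 (2.23%) and 10 of day 3.5 (2.88%) against day 0, where edgeR called 0, 6 in extravascular against intravascular TCs (9.06%; edgeR 2) and 7 in proliferative against intravascular TCs (18.1%; edgeR 3). Limma on mean log10 values called 2 in ECs of day 3.5 against day 0 (3.24%), Hmgb2 and Ube2c, 15 in extravascular against intravascular (12.6%), 21 in latent against extravascular (35.5%; edgeR 5), 7 in proliferative against intravascular (12.6%) and 2, Ccnb2 and Birc5, in latent against proliferative TCs (0.557%; edgeR 0). With cells weighted equally on mean CPM, limma called 8 in latent against extravascular (17.1%) and 8 in proliferative against intravascular TCs (9.79%). With a replicate block the count was 0 in extravascular against intravascular TCs (0.0052%) and 5 in proliferative against intravascular TCs (3.26%), and it stayed within 1.5 times in the others. Leaving out 1 library gave 0 to 3 calls in extravascular against intravascular, 4 to 6 in latent against extravascular and 2 to 4 in proliferative against intravascular TCs, and 0 to 0 in the 3 EC comparisons and in latent against proliferative TCs. Between groups of different days the replicate number pairs no mice, and such a block is not a check of pairing. The sign of Nuf2 turned with limma on log10 values in ECs, to −0.00454 for day 3.5 against day 0 and −0.0611 for day 3.5 against day 1.5. Of the other values for single genes and gene lists, 396 stayed on their side of the threshold or within 1.5 times, 32 counts moved, 24 calls were lost and 7 were gained.

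The median share of cells above 0 fell in every group when cells were thinned to 50000 reads, to 2.49% (day 0), 3.1% (day 1.5) and 3.6% (day 3.5) in ECs and to 42.3% (culture), 50.8% (intravascular), 49.2% (extravascular), 51.3% (latent) and 55.3% (proliferative) in TCs. The share of cells with at least 10 CPM was 2.44%, 3.13%, 3.36%, 44.4%, 54.3%, 52.1%, 55.2% and 59.1% in the same order. Taking the proliferative gate as its 4 labelled replicates was not run, since its cells carry 1 animal. Depth limits what 0 reads of a gene in an EC can show, since a median EC had 270590 to 390820 reads.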

Other observations

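The further mitosis genes gave values in TCs that the text above has not shown. In extravascular against intravascular TCs 40 of the 59 lay higher and 19 lower, with a median log2 difference of 0.21, and 0 passed the edgeR test, the smallest p belonging to Kif15, a spindle motor (0.62 ± 0.14, adjusted p = 0.052), and Pkmyt1, a kinase that holds Cdk1 inactive (0.60 ± 0.16, adjusted p = 0.081). In latent against intravascular TCs, Cdkn3 fell (−0.80 ± 0.17, adjusted p = 0.00704) and Fzr1 rose (0.86 ± 0.15, adjusted p = 0.00203). Fzr1 was also called higher in proliferative against extravascular TCs (1.17 ± 0.22, adjusted p = 0.0318), where 0 of the 52 members passed, in a test of 1 pooled library that is assumed to vary as the other groups do. These comparisons share libraries and were made after the data had been seen.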
